A study of Equus caballus with 14 samples.

Results

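Of 30371 genes in the deposited table of equine corpus luteum, 8 were under 0.1 CPM (counts scaled to a common library size, TMM) in every library of 1 mare with 2 or more libraries and at 10 CPM or more in every library of another. They are ENSECAG00000033388, ENSECAG00000031616, ENSECAG00000041266, ENSECAG00000037980, ENSECAG00000017205, ENSECAG00000020756, ENSECAG00000018241 and ENSECAG00000032159. The 8 genes were chosen by their CPM in these same libraries, so that they differ between mares is given here as a description and not tested. They make up 0.0263% of the genes in the table. The gene names are Ensembl identifiers. None of the identifiers in the table was found in the RefSeq gene table used for names, so symbols, positions, sequences and known roles are not given, and marker genes of luteal or other cells were not checked.

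The corpus luteum is the gland that forms from an ovulated follicle and secretes progesterone, the hormone that prepares the uterus and maintains early pregnancy. In a non-pregnant mare it regresses at the end of the luteal phase, and in a pregnant mare it persists. A biopsy holds steroid-producing luteal cells, a dense network of capillary endothelium, and stromal and immune cells. The count of a gene is the number of reads that the counting assigned to it after alignment to a reference genome. A count of 0 therefore says that no read was assigned, and whether the DNA of the mares differs at these genes was not tested. In such a bulk sample, fewer cells of a type and less RNA per cell cannot be told apart.

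The 14 libraries came from healthy cycling mares of light breeds, whose glands were biopsied through the vagina 11 or 13 days after ovulation. Non-pregnant mares gave 4 libraries on day 11 (NP11) and 4 on day 13 (NP13), and pregnant mares 4 on day 11 (P11) and 2 on day 13 (P13). The design text gives 8 enrolled mares, and the titles name 6 mares and, by their dates, 8 glands. Kate and Emma gave 4 libraries each, from 2 glands sampled on both days, Kiwi and Cornelia gave 2 libraries each from 1 gland, and Roanie (NP11) and Gisela (P11) gave 1 library each. Kiwi was non-pregnant and Cornelia pregnant on both days, the first gland of Emma is labelled pregnant and her second non-pregnant, and the second gland of Kate non-pregnant. The first gland of Kate is labelled pregnant at day 11 and non-pregnant at day 13, and her libraries are used as labelled. The ages of the mares are not stated in the labels.

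Total counts ran from 20182039 in the day 13 library of Kiwi to 32186736 in the day 13 library of the first gland of Emma. A count of 0 allows a level of up to 3 counts, which was 0.0946 to 0.142 CPM depending on the library, for counting error only. The lower bound of 0.1 CPM thus lies at the limit of what 1 library can show.

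ENSECAG00000033388 was the most abundant of the genes. It stood at 488 CPM on day 11 and 504 CPM on day 13 in the first gland of Kate, and at 293 and 371 CPM in her second gland. In Emma it was at 117 and 121 CPM in the first gland and at 122 and 124 CPM in the second. Cornelia held 331 CPM on day 11 and 218 CPM on day 13, and Roanie held 229 CPM. The libraries of Kiwi and of Gisela held 0 counts, among totals of 30193846, 20182039 and 29643471 counts. The lowest library of Emma was at least 824-fold higher than Kiwi and at least 1231-fold higher than Gisela, against a floor of 3 counts per library. No library lay between 0 and 117 CPM. Among the mares with reads, Emma had 29.2% of the mean level of Kate, and her 4 libraries, at 121 ± 3.25 CPM (SD, n = 4), lay below all of those of Kate, at 414 ± 100.2 CPM (SD, n = 4). The ranges of Kate and Cornelia overlapped, and Roanie lay within that of Cornelia.

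**Figure D1:**
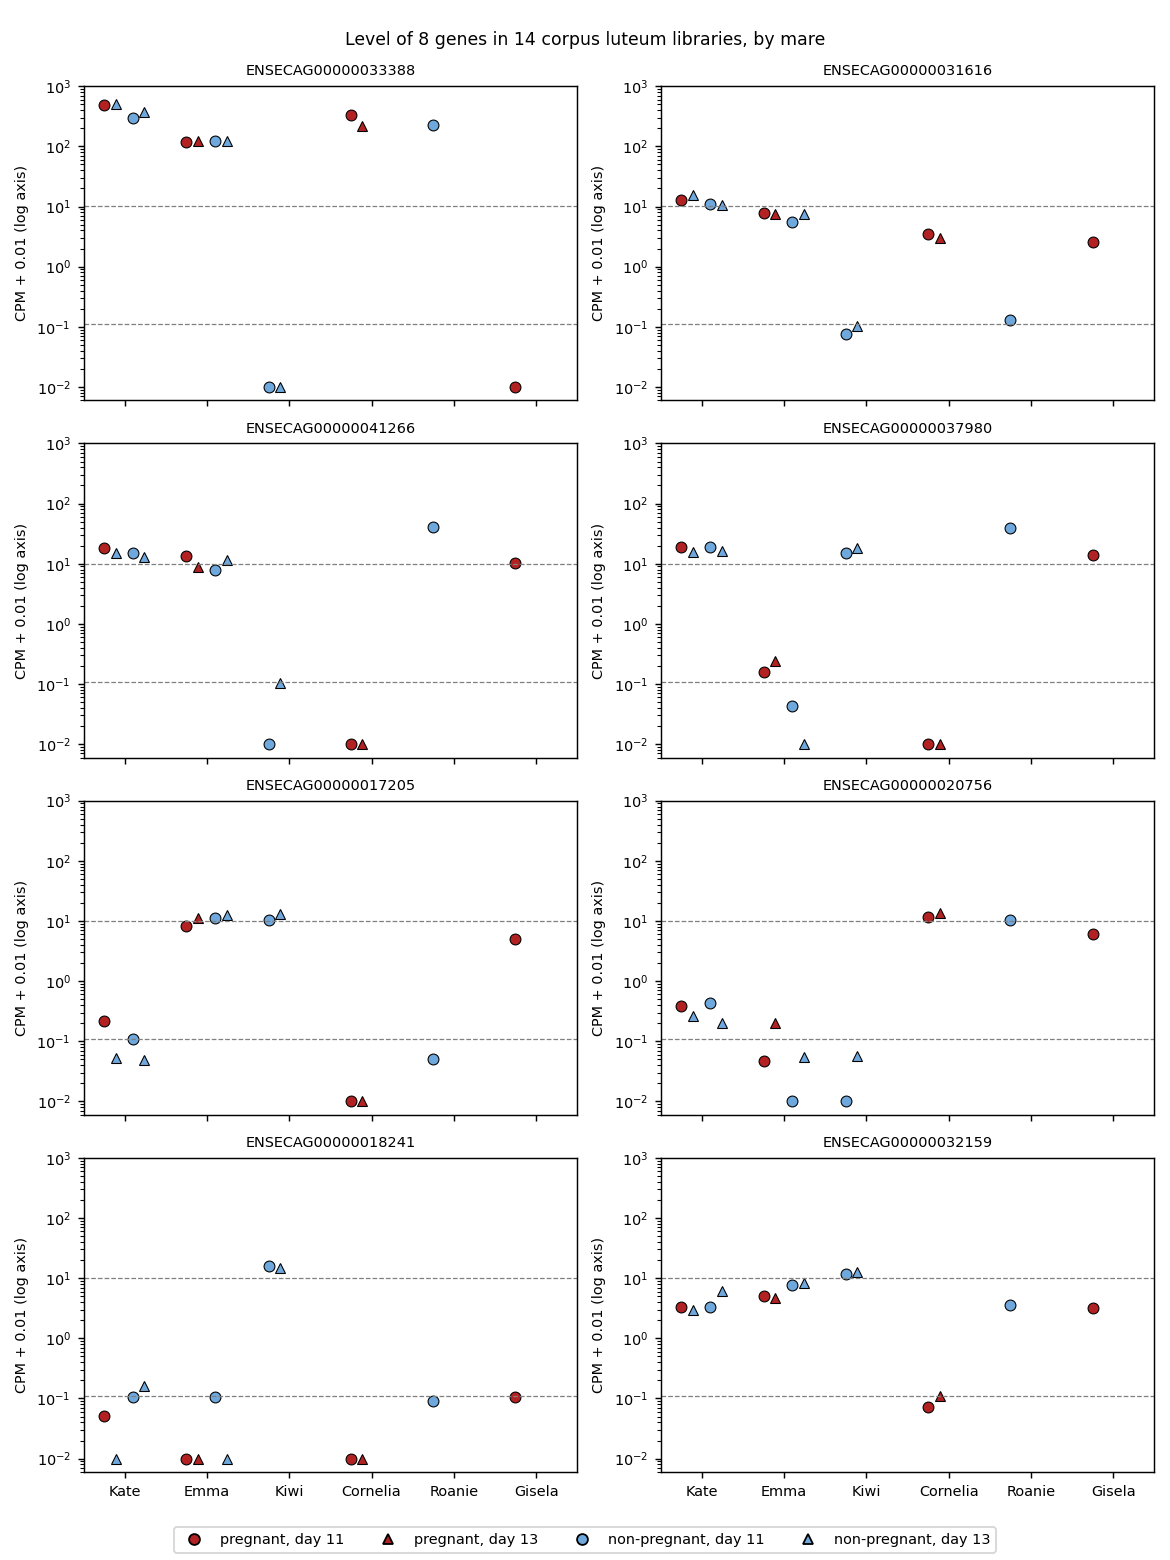
CPM plus 0.01 on a log axis for each of the 8 genes in each of the 14 libraries, grouped by mare; circles are day 11, triangles day 13, red pregnant and blue non-pregnant, with the first gland at the left and the second at the right for Kate and Emma. Dashed lines mark 0.1 and 10 CPM. Points of 1 mare lie together on 1 side of the gap between 0.421 and 2.53 CPM for every gene.

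ENSECAG00000031616 had graded levels. It was at 12.7 and 15.7 CPM on day 11 and day 13 in the first gland of Kate and at 10.9 and 10.6 CPM in the second. Emma held 7.71 and 7.56 CPM in the first gland, and 5.50 and 7.39 CPM in the second. Cornelia held 3.47 and 2.96 CPM, Gisela 2.53 CPM, Roanie 0.121 CPM (3 counts), and Kiwi 0.0669 and 0.0945 CPM (2 counts each). Emma reached 56.4% of the mean of Kate, Cornelia 25.8% and Gisela 20.3%. The ranges of Kate, Emma, Cornelia and Gisela did not overlap, with 1 library for Gisela, while Roanie and Kiwi were both at or under the floor of 3 counts and were not ordered.

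ENSECAG00000041266 was highest in Roanie, at 41.6 CPM. Kate held 18.1, 15.1, 15.4 and 13.0 CPM in the first gland (days 11 and 13) and the second (days 11 and 13), and Emma 13.3, 8.83, 7.86 and 11.7 CPM in the same order. Gisela held 10.2 CPM. Both libraries of Cornelia had 0 counts, and Kiwi had 0 and 2 counts. The ranges of Kate and Emma overlapped, and Gisela lay within that of Emma. Roanie thus stood above Kate, Emma and Gisela, whose levels ran into each other.

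ENSECAG00000037980 was also highest in Roanie, at 39.3 CPM. Kate held 19.0, 15.7, 18.7 and 16.4 CPM, Kiwi 14.9 and 18.3 CPM, and Gisela 13.9 CPM. Cornelia had 0 counts in both libraries. Emma had 4 and 7 counts in the first gland and 1 and 0 counts in the second, which is 0.227 CPM at most. Kate and Kiwi overlapped, at 17.5 ± 1.65 CPM (SD, n = 4) and 16.6 ± 2.43 CPM (SD, n = 2). Roanie had 1 library, so whether her higher level in this gene and in ENSECAG00000041266 is stable could not be seen.

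ENSECAG00000017205 was read in Kiwi, Emma and Gisela. Kiwi held 10.4 and 12.9 CPM, Emma 8.38 and 11.1 CPM in the first gland and 11.3 and 12.6 CPM in the second, and Gisela 5.03 CPM. Cornelia had 0 counts, Roanie had 1 count, and the 4 libraries of Kate had 1 to 5 counts. Kiwi and Emma overlapped, while Gisela was below both, at 43.0% of the mean of Kiwi.

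ENSECAG00000020756 was read in the mares Cornelia, Roanie and Gisela. Its level was 11.5 and 13.5 CPM in Cornelia, 10.2 CPM in Roanie and 6.10 CPM in Gisela. Kiwi had 0 and 1 counts, and Emma 0 to 6 counts. Kate had 5 to 13 counts in her 4 libraries, at 0.191 to 0.421 CPM. That is 2.49% of the mean of Cornelia and above the floor of 3 counts in each of the 4 libraries.

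ENSECAG00000018241 was read at a high level in 1 mare. Kiwi held 15.7 CPM on day 11 and 14.7 CPM on day 13. In the other 5 mares the 12 libraries held 0 to 4 counts, 0.153 CPM at most. Cornelia had 0 counts in both libraries, and Kiwi was at least 149-fold higher than Cornelia against the floor.

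ENSECAG00000032159 was the reverse, near 0 in 1 mare. Cornelia had 2 and 3 counts, at 0.0631 and 0.0988 CPM. The highest level was in Kiwi, at 11.8 and 12.6 CPM. Emma held 5.08 and 4.64 CPM in the first gland and 7.63 and 8.34 CPM in the second, Kate 3.28, 2.96, 3.37 and 6.16 CPM, Roanie 3.54 CPM and Gisela 3.13 CPM. The ranges of Emma and Kate overlapped, the single libraries of Roanie and Gisela lay within the range of Kate, and both libraries of Kiwi stood above all of these.

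The levels of the 8 genes left a gap. Of the 112 values, 8 genes in 14 libraries, 47 lay at or below 0.421 CPM and the rest at or above 2.53 CPM. Of these 47 values 19 were counts of 0, 19 were counts of 1 to 3, and 9 were counts of 4 to 13. Above the gap, 22 values lay between 1 and 10 CPM. Taking 1 CPM as the division, 20 of the 48 combinations of gene and mare were below it. The rule fixed a mare under 0.1 CPM and a mare at 10 CPM or more for each gene and set no bound on the other mares.

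ENSECAG00000032159 and ENSECAG00000031616 lay just inside the lower bound, with 0.099 and 0.094 CPM as the highest value in their lowest mare. Among the 8636 genes that reached 10 CPM in every library of 1 of the 4 mares with 2 or more libraries, none had a highest value from 0.1 to under 0.5 CPM in another. The nearest outside was ENSECAG00000029414, with 0.614 CPM as its highest value in Kiwi, followed by ENSECAG00000023361 with 1.04 CPM, and 6 genes lay from 1 to under 2 CPM. At the upper bound ENSECAG00000017205 lay just inside with 10.4 CPM as its lowest value in Kiwi, and the nearest outside was ENSECAG00000038120, at 0 counts in Kiwi and 3.62 CPM or more in Cornelia. With an upper bound of 20 CPM only ENSECAG00000033388 was left.

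**Figure D2:**
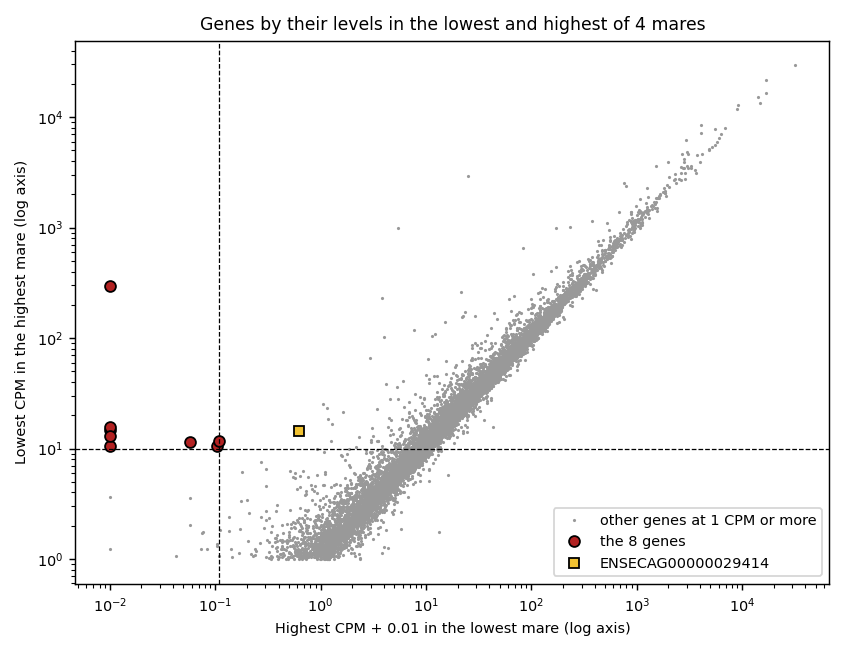
Each point is a gene, with the highest CPM in its lowest mare on the x axis (plus 0.01) and the lowest CPM in its highest mare on the y axis, both log axes, over the 4 mares with 2 or more libraries. The 8 genes (red) lie left of 0.1 CPM and above 10 CPM, and the nearest gene, ENSECAG00000029414 (yellow), lies at 0.614 CPM.

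No 2 of the genes were read in the same set of mares. With 1 CPM as the division, the 8 genes gave 8 different sets. Cornelia was under 1 CPM for 5 of the 8 genes, Kiwi for 4, Kate, Emma and Roanie for 3 each, and Gisela for 2. The genes under 1 CPM in Kiwi (ENSECAG00000033388, ENSECAG00000031616, ENSECAG00000041266 and ENSECAG00000020756) and those under 1 CPM in Cornelia (ENSECAG00000041266, ENSECAG00000037980, ENSECAG00000017205, ENSECAG00000018241 and ENSECAG00000032159) shared only ENSECAG00000041266. For 6 of the 7 genes in which these 2 mares differed they themselves met the rule, 1 as the low and 1 as the high mare, so the contrast between them was fixed by the choice of genes (the exception is ENSECAG00000031616). The libraries of Kiwi held 30193846 and 20182039 counts, and those of Cornelia 31657730 and 28917175.

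Among the 28 pairs of genes, 2 pairs disagreed in 1 mare alone, 6 in 2 mares, 10 in 3, 6 in 4 and 4 in 5 mares. ENSECAG00000041266 and ENSECAG00000032159 were both read in Kate, Emma, Roanie and Gisela and both under 1 CPM in Cornelia, and parted in Kiwi. Kiwi met the rule for both, low for the first and high for the second, and Cornelia met it as low for both. ENSECAG00000037980 and ENSECAG00000032159 were both read in Kate, Kiwi, Roanie and Gisela and both under 1 CPM in Cornelia, and parted in Emma. No mare reached 1 CPM for both ENSECAG00000033388 and ENSECAG00000018241, and 5 of the 6 did for 1 of them. The same counts held for ENSECAG00000018241 beside ENSECAG00000031616 and beside ENSECAG00000041266. ENSECAG00000018241 reached 1 CPM only in Kiwi, which met the rule as high for it and as low for ENSECAG00000033388, ENSECAG00000031616 and ENSECAG00000041266. That these pairs parted in Kiwi was therefore fixed by the choice of genes. ENSECAG00000017205 and ENSECAG00000020756 were read together only in Gisela, at 5.03 and 6.10 CPM, 43.0% and 48.8% of the level in their highest mare. Kate was under 1 CPM for both, at trace levels of up to 0.21 and 0.421 CPM, and the other 4 mares reached 1 CPM for 1 of them. Kiwi and Cornelia met the rule for both genes in opposite ways, so their part in this was fixed too.

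**Figure D3:**
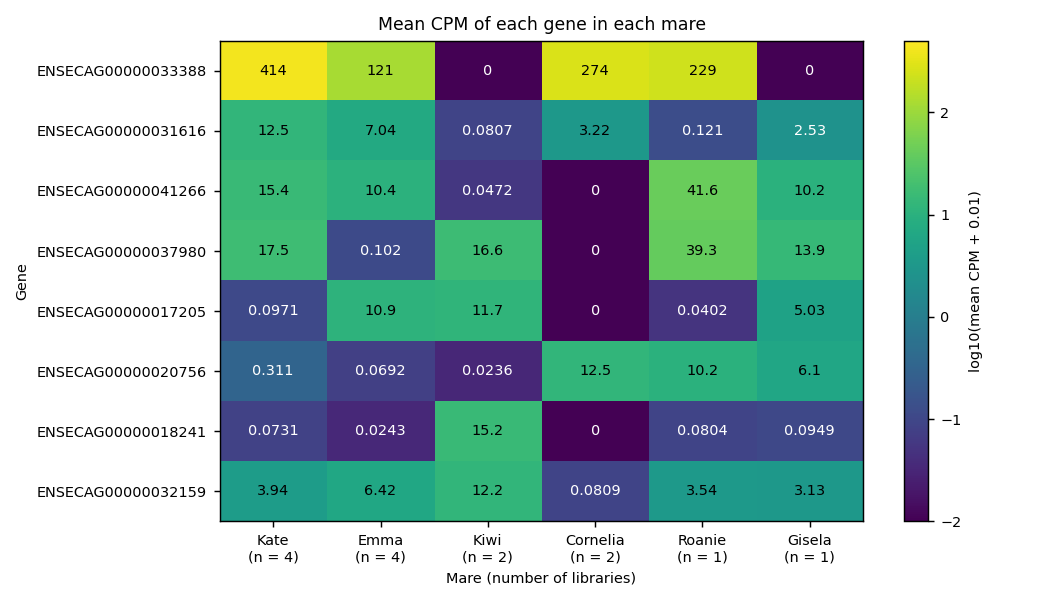
Mean CPM of each of the 8 genes (rows) in each of the 6 mares (columns, with the number of libraries); colour is log10 of the mean CPM plus 0.01. The cells of Kiwi and Cornelia differ in all genes but ENSECAG00000041266, which is near or at 0 in both.

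Expression was next compared across day, pregnancy status and glands of the same mare. For these genes, 0 of the 32 combinations of gene and mare with 2 or more libraries had libraries on both sides of 1 CPM. No gene crossed the gap between days in Kate, Emma, Kiwi or Cornelia, nor between glands or status labels in Kate and Emma. Kiwi and Cornelia gave 1 gland with 1 status each, and in Emma the status label changes with the gland. Where a mare met a bound of the rule for a gene, its libraries were on 1 side of 1 CPM by definition. That left 4 genes free in Kate, 6 in Emma, 1 in Cornelia and 0 in Kiwi. The same share over all genes was not computed. Outside the rule, Emma kept ENSECAG00000031616 between 5.50 and 7.71 CPM and ENSECAG00000037980 at 0.227 CPM or less in both glands, and Kate kept ENSECAG00000020756 at 0.421 CPM or less. The first gland of Kate, whose label changes from pregnant to non-pregnant, held ENSECAG00000033388 at 488 and 504 CPM and ENSECAG00000020756 at 0.379 and 0.254 CPM under the 2 labels.

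Between days within a gland, the genes at 1 CPM or more gave 27 differences in 6 glands, 15 upward and 12 downward, from -0.60 to 0.86 in log2 CPM, and 23 were within 0.5. Of these, 16 came from mares that met the rule for that gene, where both days had to be at 10 CPM or more. The other 11 ran from -0.59 to 0.86, with a median size of 0.22. The largest rise was that of ENSECAG00000032159 in the second gland of Kate, from 3.37 to 6.16 CPM, beyond the 95th percentile of 0.784 over all genes in that gland. The largest fall was that of ENSECAG00000033388 in Cornelia, from 331 to 218 CPM, whereas in Emma it changed by 0.05 and 0.03. ENSECAG00000041266 went from 13.3 to 8.83 CPM in the first gland of Emma and from 7.86 to 11.7 CPM in the second, so its direction was not shared between glands of 1 mare. The median size of the difference was 0.127 to 0.256 for the genes read in a gland, 3 to 5 of them, and 0.156 to 0.183 over all genes at 1 CPM or more in both libraries of that gland. It was larger for these genes than for all genes in 4 of the 6 glands.

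Tested over all libraries with a mean per group, no gene of the 8 differed between days in edgeR's quasi-likelihood test, where 5 of 15437 genes passed an adjusted p of 0.05 (0.0324%). All 8 had an adjusted p of 1. At an unadjusted p under 0.05 there were 0 of the 8, against 2.84% of all genes. Choosing genes for differences between mares widens their spread within the groups, so this test could hardly call them and does not show stability. The CPM ranges of the days overlapped for each of the 8, where 0.0453% of all genes had ranges apart. That overlap was fixed by the choice of genes, since every mare that could meet the rule was sampled on both days. With the gland as a block, which compares days within the 6 glands sampled on both days, 1 gene of 15437 passed (0.00648%) and 0 of the 8. At an unadjusted p under 0.05 there were again 0 of the 8, against 6.55% of all genes. The block made the estimates far tighter, which follows in part from choosing genes for differences between mares. For ENSECAG00000033388 the 95% confidence interval of the log2 fold change was -2.75 to 2.92 without the block and -0.30 to 0.25 with it. For ENSECAG00000037980 the estimate went from -3.33 ± 1.62 (SE) to -0.04 ± 0.16 (SE). The intervals with the block stayed within 2-fold either way for ENSECAG00000033388, ENSECAG00000031616, ENSECAG00000041266, ENSECAG00000037980, ENSECAG00000017205 and ENSECAG00000032159. Those of ENSECAG00000020756, -0.80 to 1.01, and ENSECAG00000018241, -1.35 to 0.89, did not. Where a mare met the rule for a gene, both of its days had to lie under 0.1 CPM or at 10 CPM or more. The intervals and p-values with the block are in part limited by that and are a description. The glands sampled on day 13 had all been biopsied on day 11, so day and an earlier biopsy cannot be told apart.

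Between the first and second gland of a mare, differences of these genes were larger at the median than those of all genes, and none reached 1 in log2 CPM. Among the 5 genes at 1 CPM or more in all libraries of Kate, and likewise 5 in Emma, the 10 differences in mean log2 CPM between glands ran from -0.59 to 0.71. Their median size was 0.397 in Kate and 0.258 in Emma, against 0.125 and 0.127 over all genes at 1 CPM or more. Of the 10, 5 were in mares that met the rule for that gene, ENSECAG00000033388, ENSECAG00000031616, ENSECAG00000041266 and ENSECAG00000037980 in Kate and ENSECAG00000033388 in Emma, and these are given as a description. ENSECAG00000033388 went from 488 and 504 CPM to 293 and 371 CPM in Kate, a difference of -0.59 in log2 CPM, and differed by 0.06 in Emma. ENSECAG00000032159 was higher in the second gland in both mares, by a log2 fold change of 0.57 ± 0.27 (SE) in Kate and 0.72 ± 0.26 (SE) in Emma, with adjusted p-values of 0.807 and 0.729 in edgeR. With 1 library left out the value in Kate ran from 0.11 (without her second gland on day 13) to 0.96 (without it on day 11), and that in Emma from 0.54 to 0.91. The difference of ENSECAG00000032159 in mean log2 CPM exceeded that of 93.1% of all genes in Kate and 98.0% in Emma. The SE and p-values of the gland comparisons, here and below, measure the spread between libraries of a gland and not that between glands. The 2 glands of Emma were biopsied in different months and carry different status labels, so gland, season and status cannot be told apart there. In Kate the first gland is labelled pregnant on day 11 and the second gland non-pregnant on both days, so gland and status are partly mixed there as well.

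**Figure D4:**
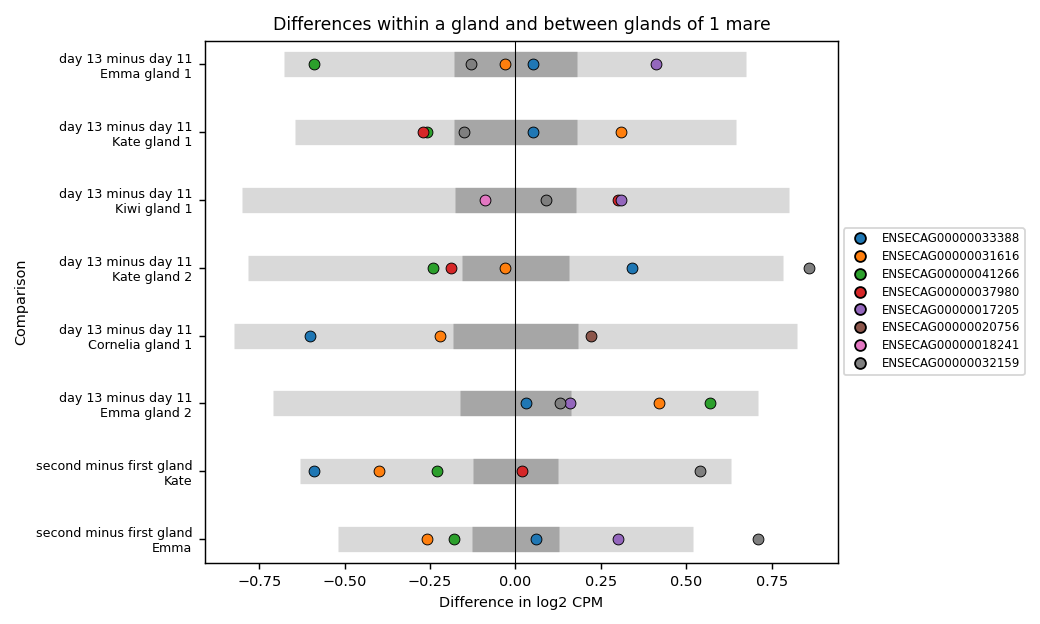
Difference in log2 CPM between days within each of 6 glands and between the 2 glands of Kate and of Emma, 1 coloured point per gene at 1 CPM or more in all libraries of the comparison. Dark and light grey bars reach to the median and the 95th percentile of the absolute difference over all genes at 1 CPM or more; points lie between -0.60 and 0.86.

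Some of the genes under 1 CPM had counts that differed between the glands of Emma, from 0 to 7 counts. In Emma, ENSECAG00000037980 went from 4 and 7 counts to 1 and 0 counts, and ENSECAG00000020756 from 1 and 6 counts to 0 and 1. The first gave a fitted log2 fold change of -3.06 ± 0.85 (SE), and its adjusted p in edgeR was 0.614. It ran from -5.39 without the day 11 library of the second gland to -2.42 without the day 13 library. The second gave -2.39 ± 1.30 (SE), and its adjusted p in edgeR was 0.926. These levels were 0.227 CPM or less, far below the 13.9 CPM or more of the mares that express ENSECAG00000037980. The mares had met neither bound of the rule for 4 of the genes in Kate and 6 in Emma. Of these, 0 of 4 passed the threshold between the glands of Kate, where 5 of 15437 genes did (0.0324%), and 0 of 6 in Emma, where 0 did (0%). At an unadjusted p under 0.05 there were 0 of the 4 in Kate (6.22% of all genes) and 2 of the 6 in Emma (6.01%), ENSECAG00000037980 and ENSECAG00000032159. DESeq2 called 52 of 15437 genes in Emma and 48 of 15437 in Kate, and none of them was among these. At such small shares, the lack of a call among 4 and 6 genes says nothing particular about them.

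Pregnant and non-pregnant libraries were compared over both days. No gene passed in edgeR (0% of 15437), and DESeq2 called 5 genes (0.0327%), none of the 7 of the 8 genes to which it gave a p. The ranges of pregnant and non-pregnant libraries overlapped for each of the 8 genes, where 0.0324% of all genes had ranges apart. At an unadjusted p under 0.05 there were 3 of the 8 in edgeR, against 4.25% of all genes, and 2 of 7 in DESeq2, against 4.53%. The genes were chosen for differences between mares and the groups hold different mares, so that share is not read as an effect of status. ENSECAG00000018241, with a fitted log2 fold change of -8.17 ± 2.75 (SE), was high in Kiwi alone, who was non-pregnant, and the 6 pregnant libraries held 0 to 3 counts. ENSECAG00000037980, at -3.94 ± 1.63 (SE), was at 0 or near it in Cornelia and Emma, who gave 4 of the 6 pregnant libraries. It was -6.29 without the day 13 library of Emma's first gland. ENSECAG00000020756, at 3.18 ± 1.37 (SE), was high in Cornelia and Gisela among the pregnant and in Roanie among the non-pregnant. It was 0.63 without the day 13 library of Cornelia and 5.27 without Roanie. All 3 had an adjusted p of 1 in edgeR.

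With the mare as a block, 1 of the 8 genes had an unadjusted p under 0.05, against 4.72% of all genes, and none passed after adjustment (0%). The estimate of ENSECAG00000037980 turned to 1.08 ± 0.46 (SE), for which edgeR gave an adjusted p of 0.938. That of ENSECAG00000018241 shrank to -2.32 ± 1.44 (SE). In the mares with both labels, counts near the floor of 3 entered these estimates. They were 0 to 7 in Emma for ENSECAG00000037980. For ENSECAG00000018241 they were 0 to 4 in Kate and 0 to 3 in Emma. For ENSECAG00000033388 the log2 fold change was -0.01 ± 1.32 (SE) without the block and 0.07 ± 0.17 (SE) with it, an interval of -0.32 to 0.46. The intervals were similar in width for ENSECAG00000031616, -0.21 to 0.56, and ENSECAG00000041266, -0.35 to 0.60. This comparison within mares rests on Emma and Kate, the mares with both labels. Both met the rule at 10 CPM or more for ENSECAG00000033388. Kate also met it for ENSECAG00000031616, ENSECAG00000041266 and ENSECAG00000037980. The estimates of these genes are thus in part limited by the choice of genes and are a description. In Emma status and gland cannot be told apart. Kate gave 1 pregnant library, from a gland labelled non-pregnant on day 13. Libraries of 1 gland entered as separate values, so these intervals do not measure the spread between glands.

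**Figure D5:**
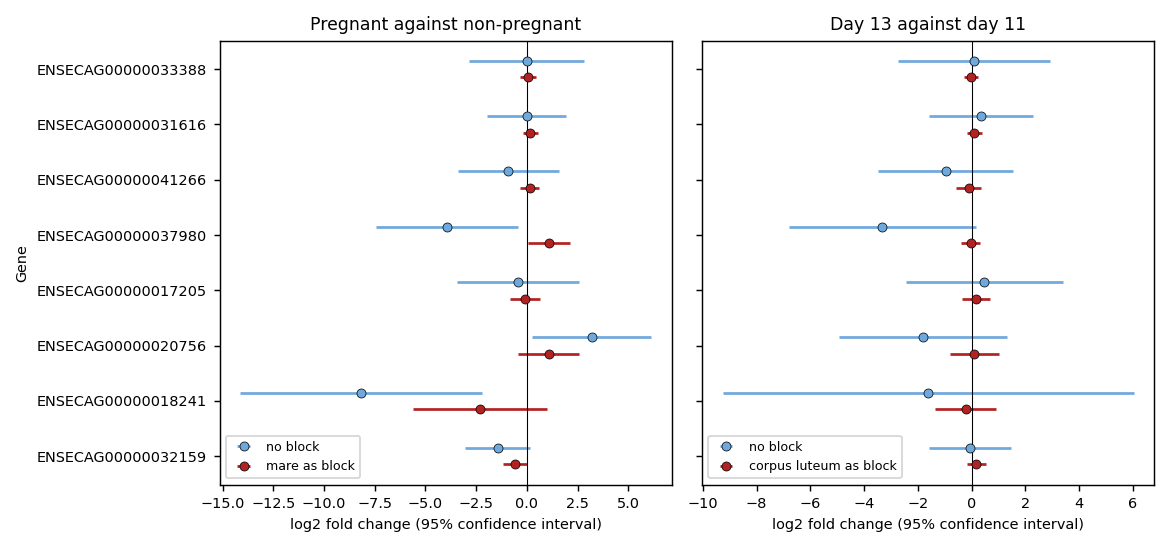
Log2 fold change with its 95% confidence interval for each of the 8 genes, pregnant against non-pregnant (left) and day 13 against day 11 (right), without a block (blue) and with a block for the mare (left) or gland (right) in red. The red intervals are the narrower ones, in genes chosen for differences between mares. With the block, the interval of ENSECAG00000033388 for day runs from -0.30 to 0.25.

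Genes with the most similar pattern were looked for among 12991 others with a mean of at least 1 CPM, by Pearson's r of log2 CPM over the 14 libraries, which share mares and glands. The values describe these libraries, since they are the highest of 12991. ENSECAG00000011290 was most like ENSECAG00000033388, with r = 0.972. It was at 22.2 to 23.4 CPM in Kiwi and at 22.2 CPM in Gisela, the mares at 0 for ENSECAG00000033388, and at a mean of 102 CPM in Emma, 120 CPM in Roanie, 174 CPM in Cornelia and 203 CPM in Kate. The order of the mare means was that of ENSECAG00000033388, and no mare was without reads. ENSECAG00000029414, the gene nearest to the rule, had an r of 0.912 with ENSECAG00000033388 and was at 0.368 and 0.614 CPM in Kiwi, 2.56 CPM in Gisela and 14.6 to 26.3 CPM in Kate. ENSECAG00000017390, the other gene named by the rule for likeness, had r = 0.914 within a narrow range of 83.7 to 133 CPM.

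ENSECAG00000039386 followed ENSECAG00000031616 with r = 0.986, the highest value of any of the 8 genes. Its mean was 4.35 CPM in Kate, 2.47 CPM in Emma, 0.985 CPM in Cornelia, 0.506 CPM in Gisela, 0.0804 CPM in Roanie and 0.0404 CPM in Kiwi, the same order of mares as in ENSECAG00000031616. It missed the rule because its lowest value in Kate was 3.53 CPM. The next, ENSECAG00000022902, had r = 0.930 and ran from 0.142 to 2.36 CPM.

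Kiwi, the mare with ENSECAG00000018241, was highest in the 2 genes most like it, which were picked by this likeness. ENSECAG00000033690 (r = 0.966) had a mean of 427 CPM in Kiwi and 209 to 236 CPM in the other mares. ENSECAG00000030686 (r = 0.894) had a mean of 256 CPM in Kiwi, 28.6 CPM in Gisela, 14.6 CPM in Emma, 10.4 CPM in Roanie, 5.49 CPM in Kate and 3.72 CPM in Cornelia. Both had reads in the mares under 1 CPM for ENSECAG00000018241.

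For the other 5 genes the highest over the lowest CPM of the 10 most similar genes was 1.30 to 4.05, so none was near 0 in some libraries and high in others. ENSECAG00000017638 (r = 0.914 with ENSECAG00000037980) had a mean of 80.0 CPM in Cornelia and 82.2 CPM in Emma, the mares under 1 CPM for ENSECAG00000037980, and 101 to 136 CPM in the others. ENSECAG00000008340 (r = 0.932 with ENSECAG00000032159) had a mean of 15.3 CPM in Cornelia, the mare near 0, and 31.9 to 48.5 CPM in the others. ENSECAG00000008567 (r = 0.903 with ENSECAG00000020756) moved only from 52.5 to 68.4 CPM. ENSECAG00000010126 (r = 0.928 with ENSECAG00000017205) had means of 7.30 to 11.4 CPM in the mares that hold that gene and 4.74 to 5.39 CPM in the others. ENSECAG00000016233 (r = 0.902 with ENSECAG00000041266) had means of 3.27 CPM in Cornelia, 4.38 CPM in Kiwi and 6.28 to 6.64 CPM in the rest.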

How the data were processed

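The authors deposited raw read counts per Ensembl gene for 14 directional libraries of polyadenylated RNA, prepared from 1000 ng each per the labels' protocols. The submitters' processing notes name Trim Galore, STAR and the build EquCab3.0. No source used here gives their versions, the counting tool and its strand setting, or the annotation release. How reads shared by near-identical or overlapping genes were counted is therefore unknown, and such counts are uncertain.

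Columns were matched to samples by library name, and mares and glands were taken from titles and library names. The 8 genes and the rules were chosen with earlier results of these data known. CPM was computed from the deposited counts with TMM factors, and log2 CPM with a prior count of 2. Genes kept by filterByExpr (15437, all 8 genes among them) were tested by quasi-likelihood in edgeR 4.0.16 under R 4.3.3, with Benjamini-Hochberg adjustment over all of them at 0.05. Pregnancy and day used a mean for each of 4 groups, and glands a mean for each of 8 glands plus a day term. For genes whose choice rested on Kate or Emma, the gland difference is described only. Libraries of 1 mare are not independent, so p-values without a block measure the spread between libraries. Named besides the 8 genes are the genes nearest to the rule's bounds and, for each, the 2 most correlated genes.

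Libraries of a mare are paired by the labels. Deviations from group means correlated with r from 0.03 to 0.52 (mean 0.32) over 6 pairs from the same gland. Over 7 pairs from the other gland of the same mare r ran from 0.19 to 0.46 (mean 0.32). Over 59 pairs of different mares it ran from -0.38 to 0.34 (mean -0.07), so the ranges overlapped. No library was a copy of another (chi-square per degree of freedom at least 21.9). Alternatives were DESeq2 1.42.0, RLE size factors, other filters, blocks, and leaving out libraries. The code was tested on simulated counts.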

Additional observations from a re-analysis of the deposited data

Results flagged for a closer look

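In each group of 4 libraries the highest and lowest value of each of the 8 genes was set against the remaining 3 values. Of the 24 sets of 4 values, 4 held a value far from the rest. About 1 set in 20 does so by chance where genes are not chosen by their values, so that rate is no yardstick for these genes. ENSECAG00000037980 was at 0 CPM in NP13 replicate 4, from the second gland of Emma, against 15.7 to 18.3 CPM in the other NP13 libraries. Roanie (NP11 replicate 1) had ENSECAG00000020756 at 10.2 CPM, where the other NP11 libraries had 0 to 0.421 CPM. Kiwi had ENSECAG00000018241 at 15.7 CPM on day 11 (NP11 replicate 2) and 14.7 CPM on day 13 (NP13 replicate 2), where the others held 0.0804 to 0.0972 CPM and 0 to 0.153 CPM. Kiwi met the rule for ENSECAG00000018241, and both of its values come from 1 gland. All 8 genes were chosen for differences between mares, so these values are a description.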

How the results depend on the processing

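None of the 8 genes passed an adjusted p of 0.05 for pregnancy or day under any alternative run, and none of the 4 in Kate and 6 in Emma that the rule did not fix did so between glands. For day, the choice of genes limited what these tests could show. The smallest adjusted p was 0.714 for pregnancy, 0.936 for day, 0.545 for the glands of Kate and 0.488 for those of Emma, over edgeR and DESeq2. Such p-values say nothing of how stable the estimates are: the median size of the log2 fold change of the 8 genes for pregnancy was 1.17, 0.377 with the mare as replicate block and 4.63 without P13 replicate 1, against 0.103, 0.128 and 0.132 over all genes. The rule gave 8 genes with RLE factors, 7 with CPM by library total (without ENSECAG00000032159), 6 with a lower bound of 0.05 CPM, 8 with 0.2 CPM, 8 with an upper bound of 5 CPM and 1 with 20 CPM. It gave 2 to 8 genes with 1 library left out: 2 without either library of Kiwi (NP11 or NP13 replicate 2) and 4 without either of Cornelia (P11 replicate 4 or P13 replicate 2), because a mare with 1 library no longer counts.

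Counts of genes called over the whole table also changed, and the cause was not tested. Pregnancy gave 0 genes in edgeR and 5 in DESeq2. Day gave 5 genes, and 19 with no low-count filter, 3 with a mean of at least 1 CPM, 43 in DESeq2, 1 with the gland as replicate block and 27 without the first gland of Kate. With 1 library left out it gave 0 to 32, namely 32 when the library of Kate's first gland on day 13 (NP13 replicate 1) was left out, 22 for Gisela, 3 for Kate's first gland on day 11, 1 for her second on day 13, 5 for Kiwi on day 13 and 0 for each of the other 9. A group or gland left with 1 library is assumed to vary like the others, and ENSECAG00000018241 could not be fitted without either library of Kiwi, where it fell under the filter. The glands of Kate gave 5 genes, and 9 with no low-count filter, 48 in DESeq2, 3 with no day term and 0 to 8 with 1 library left out (8 for either library of Cornelia, 1 for Emma's first gland on day 13 or Kiwi on day 11, and 0 for Emma's first gland on day 11 or any library of Kate). Those of Emma gave 0, and 1 with no low-count filter and 52 in DESeq2.

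Directions that turned belonged to genes that missed the threshold before and after. With the mare as replicate block the log2 fold change for pregnancy became 0.07 for ENSECAG00000033388, 0.17 for ENSECAG00000031616, 0.13 for ENSECAG00000041266 and 1.08 for ENSECAG00000037980. With the gland as replicate block that for day became -0.03 for ENSECAG00000033388, 0.10 for ENSECAG00000020756 and 0.18 for ENSECAG00000032159, which was 0.12 without the first gland of Kate. With 1 library left out, the log2 fold change for pregnancy ran from -0.34 to 0.29 for ENSECAG00000033388, from -0.42 to 0.55 for ENSECAG00000031616 and from -5.57 to 0.06 for ENSECAG00000017205. For day it ran from -0.22 to 0.41 for ENSECAG00000033388, from -0.05 to 0.91 for ENSECAG00000031616, from -4.65 to 0.97 for ENSECAG00000017205, from -4.36 to 0.28 for ENSECAG00000020756 and from -2.29 to 0.44 for ENSECAG00000032159. Between the glands of Kate it ran from -0.15 to 0.20 for ENSECAG00000037980, from -1.74 to 0.80 for ENSECAG00000017205 and from -0.92 to 0.58 for ENSECAG00000020756, and between those of Emma from -0.64 to 0.27 for ENSECAG00000041266.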
